A study of Mus musculus with 8 samples.

Results

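Chemokine ligands are small secreted proteins that steer migrating cells. They were taken here as the genes whose symbols begin with Ccl or Cxcl and a digit, together with Cx3cl1 and Xcl1. The rule uses symbols only, and earlier results of these data were known when it was chosen. The deposited table holds 37 of them among 25509 mouse genes, 23 of the CC class, 12 of the CXC class, 1 of the CX3C class and 1 of the C class. RNA had been sequenced from 4 CD249+ and 4 CD249− fibroblast fractions of the lungs of wild-type C57Bl6/J mice 2, 7, 8 and 10, both fractions of a mouse coming from its own lung. All sorted cells were negative for CD45, CD326 and CD31, surface markers of leukocytes, epithelium and endothelium. The comparison addresses which chemokine transcripts go with CD249, the aminopeptidase encoded by Enpep. Wherever 4 values are given for a fraction they stand in the order of mice 2, 7, 8 and 10.

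The classes are named for the spacing of the first cysteines of the mature protein. Most ligands are secreted, bind glycosaminoglycans and signal through G protein-coupled receptors on leukocytes. Some, such as Cxcl12, are made constitutively and hold cells in place, while others, such as Ccl2, Cxcl1 and Cxcl10, are induced by cytokines through NF-kB and interferon signalling. Atypical receptors bind chemokines without the usual G protein signal, and several of them remove chemokines from the tissue.

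Promoter sequences are shown for Cxcl14 and Cxcl10, the ligands with the largest increases among those called, and for the neighbours Cxcl1 and Cxcl2, whose values differed in pattern. They are RefSeq promoters on GRCm38.p6, each the 250 bases before the annotated start, printed in the direction of transcription: Cxcl14 (chr13:56296552-56296801, minus strand), Cxcl10 (chr5:92348890-92349139, minus strand), Cxcl1 (chr5:90890995-90891244, plus strand) and Cxcl2 (chr5:90903649-90903898, plus strand). Capitals mark matches to the kappaB consensus or to the interferon response core, which is GAAA, any 2 bases and GAAA again.
Cxcl14: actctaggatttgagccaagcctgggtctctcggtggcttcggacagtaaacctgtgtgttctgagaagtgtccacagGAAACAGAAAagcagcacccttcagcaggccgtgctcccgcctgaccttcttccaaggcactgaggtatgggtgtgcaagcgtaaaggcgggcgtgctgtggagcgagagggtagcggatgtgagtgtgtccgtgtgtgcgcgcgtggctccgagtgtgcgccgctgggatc
Cxcl10: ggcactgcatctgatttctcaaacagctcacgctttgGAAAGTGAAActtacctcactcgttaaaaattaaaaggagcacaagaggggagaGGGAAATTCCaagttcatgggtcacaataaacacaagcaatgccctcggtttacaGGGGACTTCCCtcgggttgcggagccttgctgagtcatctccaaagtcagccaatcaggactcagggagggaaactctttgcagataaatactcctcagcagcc
Cxcl1: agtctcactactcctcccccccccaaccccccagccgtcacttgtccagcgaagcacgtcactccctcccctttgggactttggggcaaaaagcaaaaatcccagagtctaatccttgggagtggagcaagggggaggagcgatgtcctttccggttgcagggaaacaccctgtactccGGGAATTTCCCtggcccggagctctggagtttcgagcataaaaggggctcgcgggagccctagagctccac
Cxcl2: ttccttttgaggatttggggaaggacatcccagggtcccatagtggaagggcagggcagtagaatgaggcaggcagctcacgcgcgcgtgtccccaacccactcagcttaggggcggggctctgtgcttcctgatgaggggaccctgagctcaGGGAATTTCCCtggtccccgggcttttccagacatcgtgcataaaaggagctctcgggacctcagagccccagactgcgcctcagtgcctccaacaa

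Both motifs were searched on both strands, kappaB as GGGRNNYYCC (R is A or G, Y is C or T, N is any base). Of the 37 ligands 27 had a RefSeq promoter under their symbol, with 33 start sites. The others, Ccl2, Ccl4, Ccl5, Ccl7, Ccl11, Ccl24, Ccl26, Cxcl5, Cxcl16 and Cxcl17, were not searched. Of the 27 ligands searched the kappaB consensus was found in 7, Ccl1, Ccl20, Ccl9, Cxcl1, Cxcl10, Cxcl2 and Cxcl3. Counted by start site, that is 7 of 33, against 7.25% of 32851 promoters of the same length. The interferon core was found in 3 of the 33 start sites, those of Ccl19, Cxcl10 and Cxcl14, and in 2.98% of those 32851 promoters. Cxcl1 and Cxcl2 carry the same kappaB letters, beginning 71 and 97 bases before the start, and on Cxcl10 matches begin 213 bases (interferon core), 159 bases and, overlapping each other, 104 and 103 bases (kappaB) before it. A match is a run of letters in a window, and binding was not measured.

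Libraries held 23011383 to 31906414 counts. Enpep averaged 241 ± 64.8 CPM (the share of the library's TMM-scaled total, in the usual CPM unit) in CD249+ libraries, against 8.98 ± 5.62 CPM in CD249− libraries (SD, n = 4 each). Transcripts of gated-out cells were present. The endothelial gate gene Pecam1 stood at 448 to 959 CPM in CD249+ libraries, against 1499 to 2031 CPM in CD249− libraries. For the leukocyte gate gene Ptprc the ranges were 43.4 to 95.6 CPM in CD249+ libraries and 58.2 to 199 CPM in CD249− libraries, and the epithelial gate gene Epcam averaged 7.98 CPM in CD249+ libraries and 7.46 CPM in CD249− libraries. All 6 core fibroblast markers rose in CD249+ libraries and all 12 blood endothelial markers fell. Such marker lists, here and below, were chosen with earlier results of these data known. In such bulk libraries fewer cells of a type and less RNA per cell cannot be told apart. Haemoglobin transcripts, a sign of blood in the lung, summed to 129 and 366 CPM in the CD249+ libraries of mice 7 and 8 and to 497 and 502 CPM in their CD249− libraries, while the 4 libraries of mice 2 and 10 held 12.1 to 26.8 CPM. Values within each of these pairs of mice therefore stand beside the pooled ones for the ligands that changed or whose call differed between the pairs.

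Of the 37 ligands 5 rose in CD249+ cells (Cxcl14, Cxcl10, Ccl2, Ccl27a and Ccl19), 2 fell (Cx3cl1 and Ccl5) and 21 were tested without passing, at an adjusted p under 0.05 over all genes in edgeR's quasi-likelihood test. That is 25.0% of the 28 tested, where 30.8% of all 14524 genes tested were called (16.9% higher, 13.9% lower). The same shares are the background for each list of other genes. A further 3 (Ccl26, Ccl27b and Ccl28) had no count in any library, and 6 (Ccl1, Ccl12, Ccl20, Ccl21b, Ccl24 and Cxcl17) had at most 35 counts in a library and did not pass the filter on low counts. The median log2 fold change of the tested ligands was -0.19 and that of all genes tested was -0.02. By class, 3 of 15 tested CC ligands rose and 1 fell, 2 of 11 CXC ligands rose, Cx3cl1 fell and Xcl1 did not pass. For 6 ligands the libraries of the fractions did not overlap, as they did not for 33.6% of all genes tested.

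The counts depended on the mice and on pairing, as did the shares of all genes called. With mouse as a block the same 5 ligands rose together with Ccl7, Cxcl1 and Cxcl15, and the same 2 fell, while 19.3% of all genes were called higher and 17.1% lower. Fits on fewer libraries had no block. Among these, mice 7 and 8 alone gave those 8 increases and mice 2 and 10 alone gave only Cxcl14. The backgrounds were 12.0% and 3.88% of all genes called higher. Without mouse 7, and likewise without mouse 8, only 2 rose, Cxcl14 and Ccl27a, and the share of all genes called higher was 12.3% and 12.2%. The number that fell was 1 without mouse 10, at a background of 8.86% of all genes called lower, and 4 without mouse 2, at 12.5%. It was 0 of the 27 ligands tested in mice 2 and 10 alone, where only 0.668% of all genes were called lower. That 0 is therefore not a result about the ligands.

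**Figure D1:**
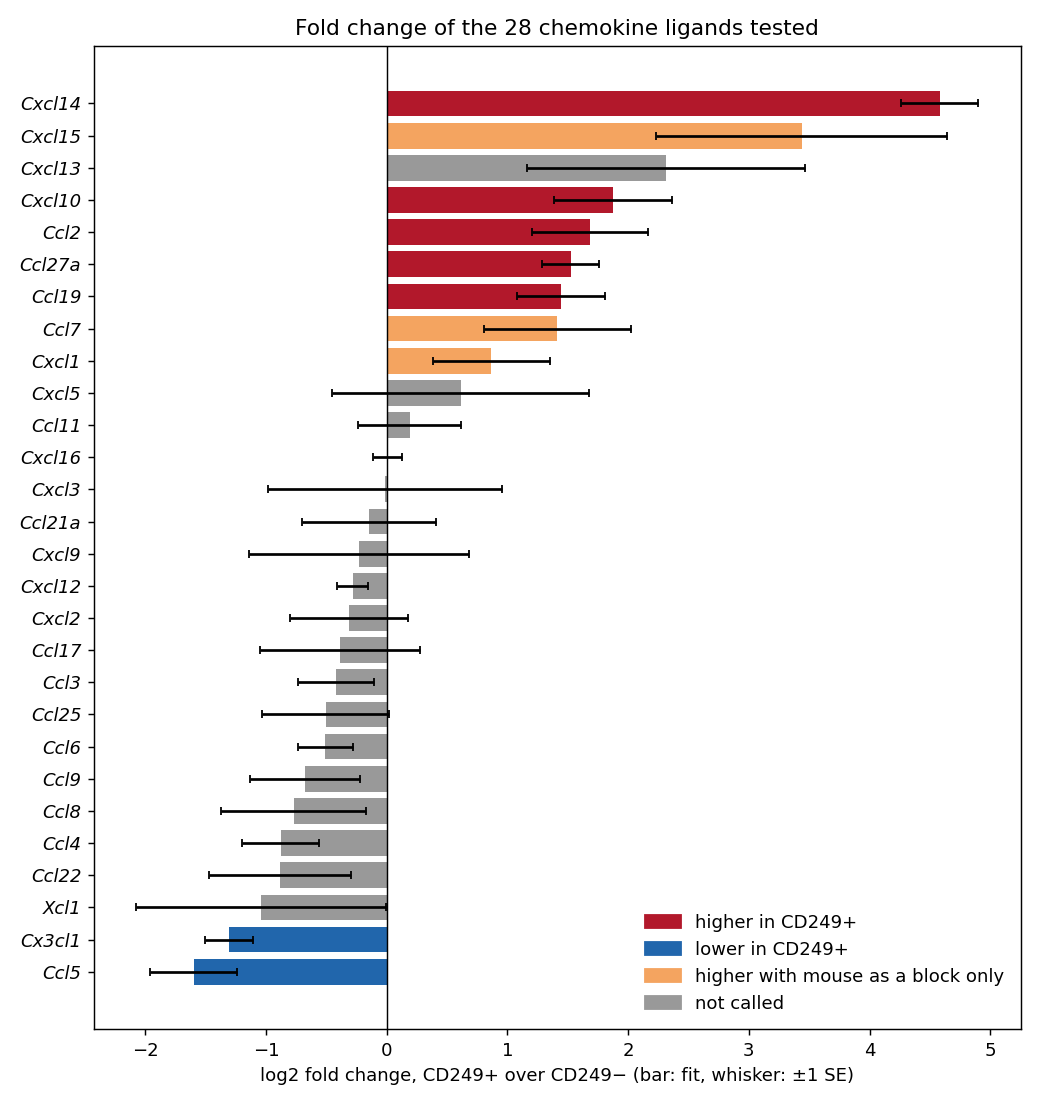
Log2 fold change of CD249+ over CD249− for the 28 ligands tested, from the fit without a block (bars), with 1 standard error to either side (whiskers) and colours for the call. Cxcl14 stands out at 4.58, Cx3cl1 and Ccl5 are the 2 that fell, and Cxcl15 and Cxcl13 lie above 2 with long whiskers.

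The sum of all ligands ran from 1123 to 1413 CPM in CD249+ libraries, against 1159 to 1271 CPM in CD249− libraries, and its make-up differed. CXC ligands held 69.7% to 80.8% of that sum in CD249+ libraries, against 54.3% to 60.1% in CD249− libraries. Per kb of exon, Cxcl14 had the highest level in CD249+ libraries at 152 ± 47.1 CPM per kb, followed by Ccl21a (57.2 ± 42.5), Cxcl1 (55.3 ± 34.0) and Cxcl12 (50.9 ± 6.47, SD, n = 4). In CD249− libraries the order began with Cx3cl1 at 66.8 ± 9.49 CPM per kb, Ccl21a (63.3 ± 30.6), Cxcl12 (61.8 ± 6.90) and Ccl6 (58.9 ± 16.9, SD, n = 4), and Cxcl14 was at 4.38 to 10.1 CPM per kb. Apart from Cxcl14 in CD249+ libraries, neighbours among the ligands named in either order differ by less than their spread. Both orders rest on the divisor, all annotated exon bases of a gene, which is 1827 for Cxcl14 and 8176 for Cxcl12. In CPM without that divisor Cxcl12 was the higher in CD249+ libraries (416 ± 52.9, against 277 ± 86.1 for Cxcl14, SD, n = 4).

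**Figure D2:**
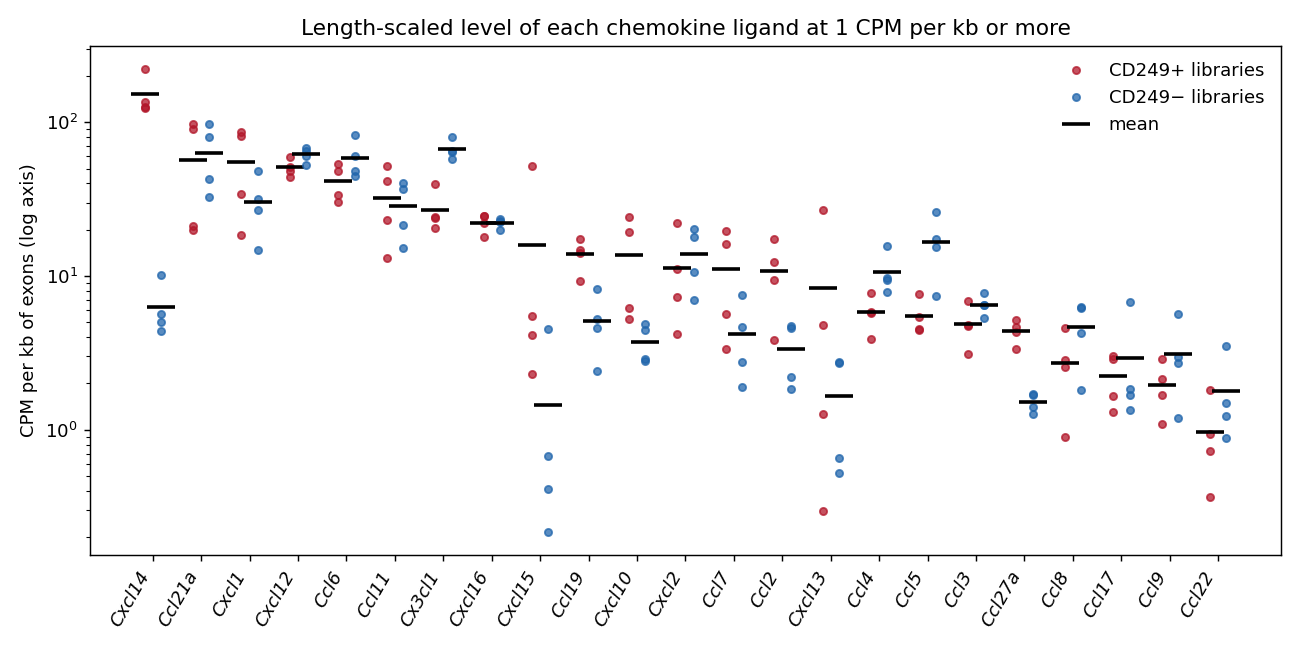
CPM per kb of exons on a log axis for each ligand with a mean of at least 1 in either fraction, CD249+ libraries left of CD249− libraries, with black bars for the means. Cxcl14 separates most, at a mean of 152 in CD249+ libraries against 6.31 in CD249− libraries, while the points of Cxcl12 and Cxcl16 lie close together.

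Cxcl14, a constitutive CXC ligand of epithelia and stroma, marked the CD249+ fraction in every mouse. Its transcript (ENSMUSG00000021508.10, chromosome 13, 56288643 to 56296551, minus strand, GRCm38) stood at 230, 248, 226 and 406 CPM in CD249+ libraries, against 9.20, 10.4, 8.01 and 18.5 CPM in CD249− libraries. The fractions were far apart, and mouse 10 was highest in both. The log2 fold change was 4.58 (SE 0.32, adjusted p = 1.00e-05), which is a 24.0-fold ratio of means. Within the mice the log2 ratios were 4.61, 4.54, 4.77 and 4.44, and it was called in mice 7 and 8 alone (4.71) and in mice 2 and 10 alone (4.52). Alveolar fibroblast markers rose too, 10 of 10, and summed to 6484 to 13028 CPM in CD249+ libraries, against 582 to 1084 CPM in CD249− libraries. Of 10 pericyte and smooth muscle markers 8 rose and 0 fell, with a median log2 fold change of 1.86, and they summed to 1013 to 1790 CPM in CD249+ libraries, against 220.0 to 744 CPM in CD249− libraries. Of 6 mesothelial markers 1 rose and 4 fell, and of 10 adventitial fibroblast markers 1 rose and 4 fell. The part of these cell types in the Cxcl14 result was not tested.

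Cxcl12, the constitutive stromal ligand of Cxcr4, was abundant in both fractions and did not pass (ENSMUSG00000061353.11, chromosome 6, 117168535 to 117181367, plus strand). It stood at 396, 421, 486 and 361 CPM in CD249+ libraries, against 535, 431, 496 and 560 CPM in CD249− libraries. The fractions overlapped, and the within-mouse log2 ratios were -0.43, -0.03, -0.03 and -0.64. The log2 fold change was -0.28 (SE 0.13, adjusted p = 0.122). It was -0.38 and passed when libraries were scaled by their totals only (adjusted p = 0.0485).

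Cx3cl1, a membrane-anchored ligand that binds Cx3cr1 on monocytes and is known from endothelium and other tissue cells, fell (ENSMUSG00000031778.12, chromosome 8, 94772009 to 94782427, plus strand). It stood at 155, 81.0, 93.7 and 94.6 CPM in CD249+ libraries, against 315, 250, 228 and 256 CPM in CD249− libraries. The fractions did not overlap, and mouse 2 was highest in both. The log2 fold change was -1.31 (SE 0.20, adjusted p = 0.00092), -1.42 in mice 7 and 8 alone and -1.20 in mice 2 and 10 alone, where it did not pass (adjusted p = 0.0882). The 12 blood endothelial markers, all lower, summed to 4194 to 7842 CPM in CD249+ libraries, against 12933 to 17257 CPM in CD249− libraries. Pecam1 had a log2 fold change of -1.45. Their part in the Cx3cl1 result was not tested.

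**Figure D3:**
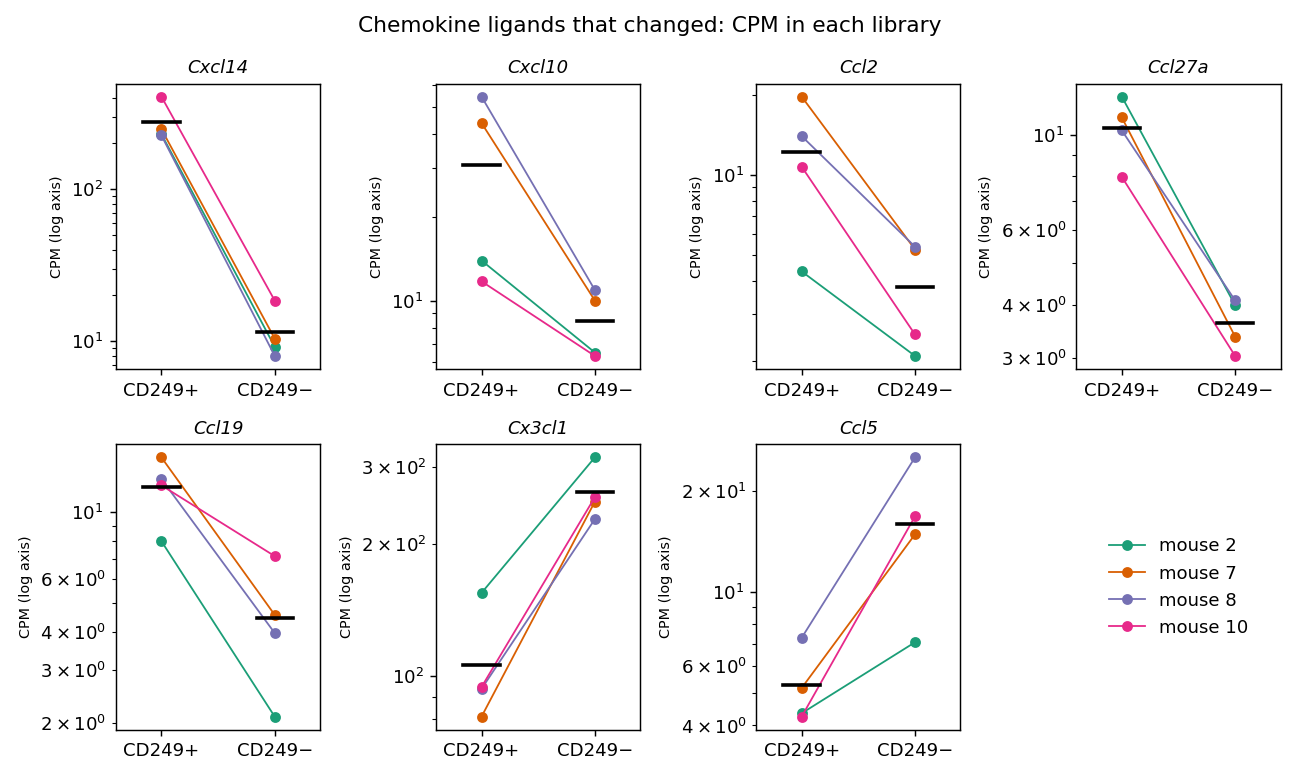
CPM on a log axis for the 7 ligands that changed, CD249+ left of CD249−, with 1 line per mouse and black bars for the means. In each panel the lines of all 4 mice slope the same way, and in those of Ccl2 and Ccl5 the fractions overlap.

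Among the inducible ligands, Cxcl10 and Ccl2 rose, and Ccl7 and Cxcl1 passed with mouse as a block. Cxcl10, an interferon-induced ligand of Cxcr3 (ENSMUSG00000034855.13, chromosome 5, 92346638 to 92348889, minus strand), stood at 14.0, 43.7, 54.4 and 11.7 CPM in CD249+ libraries, against 6.51, 10.0, 10.9 and 6.33 CPM in CD249− libraries. Mice 7 and 8 were highest in both fractions, which did not overlap. Cxcl10 rose with a log2 fold change of 1.88 (SE 0.49, adjusted p = 0.0153, blocked adjusted p = 0.00162). Mice 7 and 8 alone gave 2.26 (adjusted p = 0.000682), and mice 2 and 10 alone gave 1.00 without passing (adjusted p = 0.112). The call was lost without mouse 7 or mouse 8 (adjusted p = 0.0801 and 0.0647) and with limma-voom (0.0703), at log2 fold changes of 1.75, 1.60 and 1.62. Cxcl10 shares 133 exon bases with Art3 on the opposite strand, and libraries of this kind do not keep the strand. Art3 rose as well (log2 fold change 2.29, adjusted p = 0.0041), with 19.2, 20.5, 15.9 and 5.34 CPM in CD249+ libraries, against 2.86, 3.19, 1.50 and 4.80 CPM in CD249− libraries. Its CD249+ values were highest in mice 2 and 7, those of Cxcl10 in mice 7 and 8.

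The monocyte attractants Ccl2 and Ccl7 are neighbours on chromosome 11 and both act through Ccr2. Ccl2 (ENSMUSG00000035385.5, 82035571 to 82037453, plus strand) stood at 4.35, 19.7, 14.0 and 10.8 CPM in CD249+ libraries, against 2.09, 5.25, 5.38 and 2.52 CPM in CD249− libraries. It was higher in the CD249+ library of each mouse, although that of mouse 2 lay below the CD249− libraries of mice 7 and 8. Ccl2 had a log2 fold change of 1.68 (SE 0.48, adjusted p = 0.0239, blocked adjusted p = 0.00159). The pairs gave 1.70 in mice 7 and 8 and 1.71 in mice 2 and 10, where Ccl2 did not pass (adjusted p = 0.158). The call was also lost with limma-voom (adjusted p = 0.0572), without the CD249+ library of mouse 7 or 8 (0.0751 and 0.0577), without either the mouse 2 or the mouse 10 CD249− library (0.0543 and 0.0623) and without mouse 7, 8 or 10 (0.0840, 0.0695 and 0.0945). Over all alternatives the log2 fold change of Ccl2 stayed at 1.35 to 1.98. Ccl7 (82045712 to 82047525, plus strand) stood at 2.67, 15.7, 13.0 and 4.52 CPM in CD249+ libraries, against 1.53, 3.71, 6.01 and 2.22 CPM in CD249− libraries. It too was higher in the CD249+ library of each mouse, with overlap between mice. Its log2 fold change was 1.41 (SE 0.61, adjusted p = 0.107), and it passed in the blocked fit (adjusted p = 0.0129). DESeq2 also called Ccl7 higher, as did the fit without the CD249+ library of mouse 2. The pairs gave 1.59 in mice 7 and 8 (adjusted p = 0.0237) and 0.94 in mice 2 and 10 (adjusted p = 0.408).

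Cxcl1 and Cxcl2 lie side by side on chromosome 5 and both attract neutrophils through Cxcr2. Cxcl1 (90891241 to 90893115, plus strand) stood at 34.7, 163, 152 and 64.3 CPM in CD249+ libraries, against 27.6, 90.4, 59.1 and 50.4 CPM in CD249− libraries. It was higher in the CD249+ library of each mouse, and mice 7 and 8 were highest in both fractions. Cxcl1 had a log2 fold change of 0.87 (SE 0.49, adjusted p = 0.211); the blocked fit gave 0.73 (adjusted p = 0.0101), and the pairs gave 1.10 in mice 7 and 8 (adjusted p = 0.0121) and 0.34 in mice 2 and 10 (adjusted p = 0.672). Cxcl2 stood at 46.0, 15.0, 23.1 and 8.63 CPM in CD249+ libraries, against 37.1, 22.0, 42.1 and 14.5 CPM in CD249− libraries. Mouse 2, which had the lowest Cxcl1 in each fraction, had the highest Cxcl2 of the CD249+ libraries, and the fractions overlapped. Cxcl2 did not pass in either fit (log2 fold change -0.31, SE 0.49, adjusted p = 0.668, blocked adjusted p = 0.114). The counts of Cxcl2 and of its close relative Cxcl3 were not whole in any library, as happens where reads are divided among similar genes, so both values are uncertain.

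Ccl11, an eosinophil attractant acting through Ccr3, and Cxcl13, the B cell attractant, had no common direction over the mice. Ccl11 stood at 14.3, 56.1, 44.8 and 25.0 CPM in CD249+ libraries, against 16.4, 39.6, 23.1 and 43.8 CPM in CD249− libraries (log2 fold change 0.19, SE 0.43, adjusted p = 0.776). Cxcl13, named for its spread after its values were seen, stood at 1.45, 30.9, 5.52 and 0.343 CPM in CD249+ libraries, against 0.598, 3.12, 0.751 and 3.18 CPM in CD249− libraries (log2 fold change 2.31, SE 1.15, adjusted p = 0.161). For both genes mice 7 and 8 had more in CD249+ and mouse 10 had more in CD249−.

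**Figure D4:**
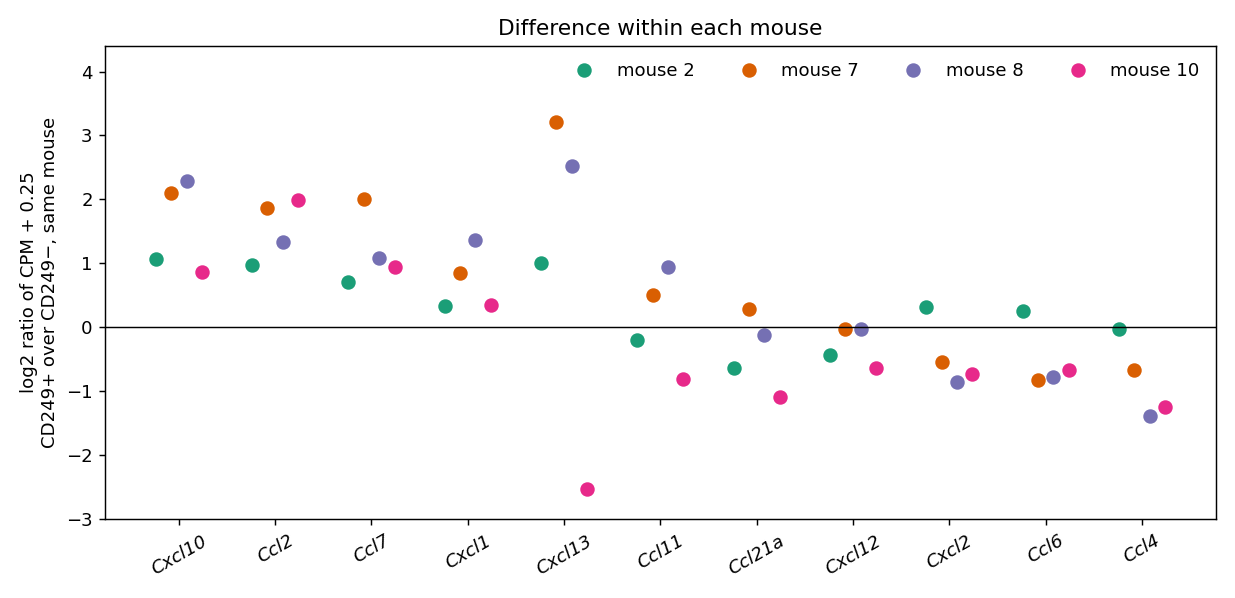
Log2 ratio of CD249+ over CD249− within each mouse, from CPM with 0.25 added, for 11 ligands and with 1 point per mouse. Cxcl10, Ccl2, Ccl7 and Cxcl1 lie above 0 in all 4 mice, Cxcl12 and Ccl4 below 0 in all 4, and Cxcl13 spreads from -2.53 to 3.21.

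Genes of the routes that induce these ligands did not move one way. Of 25 tested genes of NF-kB and interferon signalling and their cytokine targets, 4 rose (Vcam1, Lif, Il1r1 and Nfkbiz) and 3 fell (Nfkb1, Irf7 and Stat2). The other 18 did not pass, and the median log2 fold change was -0.05. Of all genes tested, 16.9% were called higher and 13.9% lower. Nfkbiz, an inducible cofactor of NF-kB, stood at 265, 703, 739 and 365 CPM in CD249+ libraries, against 127, 270, 306 and 124 CPM in CD249− libraries, with mice 7 and 8 highest in both fractions as for Cxcl10 and Cxcl1. Immediate early and stress genes, which tissue digestion is known to switch on, rose for 7 of 17, among them Egr1 and Junb, and 10 did not pass. With mouse as a block 13 rose and 1 fell, where 19.3% of all genes were called higher and 17.1% lower. They summed to 17813, 36821, 30953 and 22291 CPM in CD249+ libraries, against 13270, 19463, 18056 and 13532 CPM in CD249− libraries. Their part in the inducible ligands' results was not tested.

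Of the ligands of lymphocyte and dendritic cell traffic, Ccl27a and Ccl19 rose. Ccl27a, known from skin as a ligand of Ccr10 (ENSMUSG00000073888.12, chromosome 4, 41769467 to 41774247, minus strand), stood at 12.3, 11.0, 10.3 and 7.98 CPM in CD249+ libraries, against 3.98, 3.36, 4.09 and 3.03 CPM in CD249− libraries. The fractions did not overlap. Ccl27a had a log2 fold change of 1.52 (SE 0.23, adjusted p = 0.000925), 1.55 in mice 7 and 8 alone and 1.53 in mice 2 and 10 alone, where it did not pass (adjusted p = 0.105). It shares 8 exon bases with Il11ra1 on the opposite strand, which rose too (294 ± 62.9 CPM in CD249+ libraries, against 122 ± 24.9 CPM in CD249− libraries, SD, n = 4 each). Ccl19, which guides dendritic cells and naive T cells through Ccr7 (ENSMUSG00000071005.7, chromosome 4, 42754525 to 42756577, minus strand), stood at 8.00, 15.2, 12.9 and 12.3 CPM in CD249+ libraries, against 2.09, 4.55, 3.96 and 7.14 CPM in CD249− libraries. These did not overlap either, and mouse 2 was lowest in both. Ccl19 had a log2 fold change of 1.44 (SE 0.36, adjusted p = 0.0133, blocked adjusted p = 0.00232). The pairs of mice gave 1.75 (7 and 8) and 1.13 (2 and 10, adjusted p = 0.361). The call was lost without mouse 7 or mouse 8 (adjusted p = 0.0821 and 0.0790), at log2 fold changes of 1.33 and 1.36.

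Ccl21a, the other ligand of Ccr7 and a product of lymphatic endothelium, did not pass. It stood at 18.3, 85.1, 78.3 and 17.4 CPM in CD249+ libraries, against 28.6, 69.5, 85.1 and 37.2 CPM in CD249− libraries. Mice 7 and 8 were higher than mice 2 and 10 in both fractions, which overlapped (log2 fold change -0.15, SE 0.56, adjusted p = 0.871). Of 6 lymphatic endothelial markers Pdpn rose, Lyve1 and Flt4 fell and 3 did not pass, among them the defining factor Prox1 at 2.29 CPM in CD249+ libraries, against 1.77 CPM in CD249− libraries. The list summed to 209 to 412 CPM in CD249+ libraries, against 688 to 958 CPM in CD249− libraries. Most of each sum came from Lyve1 and Flt4. Mmrn1, which did not pass, stood at 6.32, 17.2, 29.5 and 1.82 CPM in CD249+ libraries, against 12.2, 30.9, 32.7 and 7.32 CPM in CD249− libraries. Its values were highest in mice 7 and 8 in both fractions, while those of Prox1 and Reln were so in only 1 fraction each. The part of lymphatic transcripts in the Ccl21a values was not tested. Counts of Ccl19, Ccl21a and Ccl27a, which have near-identical copies on chromosome 4, were not whole in any library, so the division of reads makes all 3 uncertain.

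Of the ligands typical of leukocytes, Ccl5 fell. Ccl5, a ligand known from T and NK cells (ENSMUSG00000035042.2, chromosome 11, 83525778 to 83530518, minus strand), stood at 4.35, 5.17, 7.29 and 4.25 CPM in CD249+ libraries, against 7.07, 14.8, 25.1 and 16.8 CPM in CD249− libraries. It was lower in the CD249+ library of each mouse, and only that of mouse 8 lay above the lowest CD249− library. Ccl5 had a log2 fold change of -1.60 (SE 0.36, adjusted p = 0.0078, blocked adjusted p = 0.00191). It was -1.64 for mice 7 and 8 and -1.47 for mice 2 and 10 (adjusted p = 0.157). The call was lost without mouse 10 (-1.48, adjusted p = 0.0524). T, NK and B cell markers summed to 30.7 to 96.1 CPM in CD249+ libraries, against 33.3 to 222 CPM in CD249− libraries. Of the 9, edgeR and limma-voom called 0 and DESeq2 called 2 lower, and 2 were lower at an unadjusted p under 0.05 in edgeR. With mouse as a block 4 of them fell. Of 5 general leukocyte markers Laptm5 fell (log2 fold change -0.73, adjusted p = 0.0448), and all 5 were lower at an unadjusted p under 0.05. DESeq2 called 4 of these 5 lower, as did the blocked fit, and limma-voom called 1. They summed to 267 to 421 CPM in CD249+ libraries, against 321 to 874 CPM in CD249− libraries. The part of leukocyte transcripts in the Ccl5 result was not tested.

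Ccl6, a macrophage ligand of rodents, did not pass (chromosome 11, 83587882 to 83593087, minus strand). It stood at 95.9, 60.5, 86.0 and 54.8 CPM in CD249+ libraries, against 80.6, 108, 148 and 86.7 CPM in CD249− libraries. Mouse 2 alone was higher in CD249+, and the fractions overlapped (log2 fold change -0.51, SE 0.23, adjusted p = 0.125). It passed without mouse 2 (-0.74, adjusted p = 0.038). Of the pairs, mice 7 and 8 gave -0.77 and passed (adjusted p = 0.0475), while mice 2 and 10 gave -0.15 (0.802). Ccl4, a macrophage and T cell ligand named after its values were seen because its libraries did not overlap, stood at 5.10, 3.82, 3.82 and 2.57 CPM in CD249+ libraries, against 5.18, 6.20, 10.4 and 6.45 CPM in CD249− libraries (log2 fold change -0.88, SE 0.32, adjusted p = 0.0627). The blocked fit did not call Ccl4 either (adjusted p = 0.0774). It was called lower by DESeq2, with library size only, without the CD249+ library of mouse 2 and without mouse 2. Ccl3, Ccl9, Ccl8, Ccl22 and Ccl17 had log2 fold changes of -0.88 to -0.39 (adjusted p = 0.290 to 0.702). Macrophage, monocyte and dendritic cell markers summed to 1069 to 3297 CPM in CD249+ libraries, against 1364 to 2306 CPM in CD249− libraries. Most of each sum was Lyz2, which reached 3147 CPM in the CD249+ library of mouse 10 and had a log2 fold change of 0.28. Every other marker of the list had a negative log2 fold change, and the median of the list was -0.54. Of the 11, edgeR, DESeq2 and limma-voom called 0, and 1 was lower at an unadjusted p under 0.05 in edgeR. With mouse as a block Cd68 and Itgax fell (adjusted p = 0.0398 and 0.0455).

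Cxcl15, or lungkine, a neutrophil attractant of lung epithelium, varied widely between mice (chromosome 5, 90794534 to 90803067, plus strand). It stood at 4.87, 8.81, 11.6 and 110 CPM in CD249+ libraries, against 1.43, 0.876, 0.459 and 9.57 CPM in CD249− libraries. Mouse 10 was far above the others in both fractions, and each mouse was higher in CD249+. Over all libraries its log2 fold change was 3.44 (adjusted p = 0.0544), and the blocked fit gave 3.25 (adjusted p = 0.000271). It was 1.44 without the CD249+ library of mouse 10 (adjusted p = 0.291), 5.18 without its CD249− library (0.0157) and 3.18 without both (0.00551). The pairs gave 3.94 in mice 7 and 8 (adjusted p = 0.00312) and 3.38 in mice 2 and 10 (adjusted p = 0.273). Of 9 tested epithelial markers 3 surfactant genes rose, Bpifa1 fell and 5 did not pass. Over the list DESeq2 called 1 higher and 1 lower, and limma-voom called 1 higher and 0 lower. The blocked fit called 4 higher and 1 lower. The list summed to 463 to 10072 CPM in CD249+ libraries, against 158 to 724 CPM in CD249− libraries. The surfactant gene Sftpc stood at 320, 483, 781 and 7551 CPM in CD249+ libraries, against 126, 58.6, 126 and 448 CPM in CD249− libraries, and mouse 10 was again highest in both. The part of epithelial transcripts in the Cxcl15 values was not tested.

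Cxcl16, a transmembrane ligand of Cxcr6, had nearly equal levels (chromosome 11, 70453983 to 70459984, minus strand). It stood at 54.0, 74.0, 66.5 and 74.2 CPM in CD249+ libraries, against 59.8, 69.0, 71.3 and 67.6 CPM in CD249− libraries, and the fractions overlapped (log2 fold change 0.01, SE 0.12, adjusted p = 0.978). It shares 552 exon bases with Zmynd15 on the opposite strand, which had a log2 fold change of -0.95. Counts of Cxcl16 were not whole in 7 of the 8 libraries, so its values are uncertain too. The remaining tested ligands, Ccl25, Cxcl3, Cxcl5, Cxcl9 and Xcl1, reached at most 3.21 CPM in a library and did not pass (adjusted p = 0.488 to 0.994). The platelet CXC ligands Pf4 and Ppbp carry other symbols and are not among the 37. Both fell, Pf4 with 4.05 ± 2.11 CPM in CD249+ libraries, against 21.9 ± 19.5 CPM in CD249− libraries, and Ppbp with 13.8 ± 9.04 CPM in CD249+ libraries, against 83.0 ± 80.3 CPM in CD249− libraries (SD, n = 4 each). The platelet markers Gp9, Itga2b and Gp1ba fell as well, with log2 fold changes of -2.54, -2.43 and -2.85, against -2.44 for Pf4 and -2.59 for Ppbp. For all 5 the CD249− library of mouse 7 was the highest. The part of platelet transcripts in these values was not tested.

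On the receiving side, 0 of 21 tested chemokine receptors rose, 4 fell and 17 did not pass, where 16.9% of all genes tested were called higher and 13.9% lower. Those that fell were Ackr4, Ackr3, Ackr2 and Ccrl2, which are atypical receptors or related to them. At an unadjusted p under 0.05 in edgeR 0 were higher and 6 lower. DESeq2 called 0 higher and 5 lower, limma-voom called 0 higher and 4 lower, and the blocked fit called 0 higher and 6 lower. Ackr4, which takes up Ccl19 and Ccl21, stood at 22.1, 22.0, 14.9 and 17.6 CPM in CD249+ libraries, against 52.0, 61.8, 41.3 and 64.0 CPM in CD249− libraries (log2 fold change -1.52, SE 0.18, adjusted p = 0.000212). Ackr3, a scavenger of Cxcl12, stood at 79.0, 91.5, 118 and 55.9 CPM in CD249+ libraries, against 180, 227, 166 and 192 CPM in CD249− libraries (log2 fold change -1.15, SE 0.20, adjusted p = 0.00215). Ackr2, which takes up inflammatory CC ligands, stood at 108, 44.4, 66.7 and 48.9 CPM in CD249+ libraries, against 218, 139, 167 and 141 CPM in CD249− libraries (log2 fold change -1.31, SE 0.27, adjusted p = 0.00516). For each of these 3 the fractions did not overlap. Ccrl2, which binds chemerin, averaged 106 ± 31.7 CPM in CD249+ libraries, against 182 ± 25.4 CPM in CD249− libraries (SD, n = 4 each, log2 fold change -0.78, adjusted p = 0.013), and its call was lost without mouse 7, 8 or 10 (adjusted p = 0.0538, 0.0756 and 0.0514), at log2 fold changes of -0.78, -0.76 and -0.69. The number of receptors that fell was 8 without the CD249− library of mouse 2, 7 without mouse 2 and 2 in mice 2 and 10 alone, at backgrounds of 11.8%, 12.5% and 0.668% of all genes called lower. The endothelial markers fell in the same comparison, and their part in the receptor results was not tested.

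The signalling receptors of the described ligands did not pass in edgeR without a block. Ccr7, the receptor of Ccl19 and Ccl21a, averaged 36.3 ± 16.6 CPM in CD249+ libraries, against 78.1 ± 49.9 CPM in CD249− libraries (SD, n = 4 each, log2 fold change -1.10, adjusted p = 0.154, blocked adjusted p = 0.0217). Cxcr5, the receptor of Cxcl13, averaged 4.22 ± 2.72 CPM in CD249+ libraries, against 12.4 ± 8.30 CPM in CD249− libraries (SD, n = 4 each, log2 fold change -1.55, adjusted p = 0.0909, blocked adjusted p = 0.00222). DESeq2 also called Cxcr5 lower. Log2 fold changes were -0.63 for Cxcr4, -0.54 for Cx3cr1 and -0.97 for Ccr2 (adjusted p = 0.164, 0.173 and 0.116). Cxcr2, Cxcr3, Cxcr6, Ccr3 and Ccr10 averaged at most 3.89 CPM in either fraction.

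**Figure D5:**
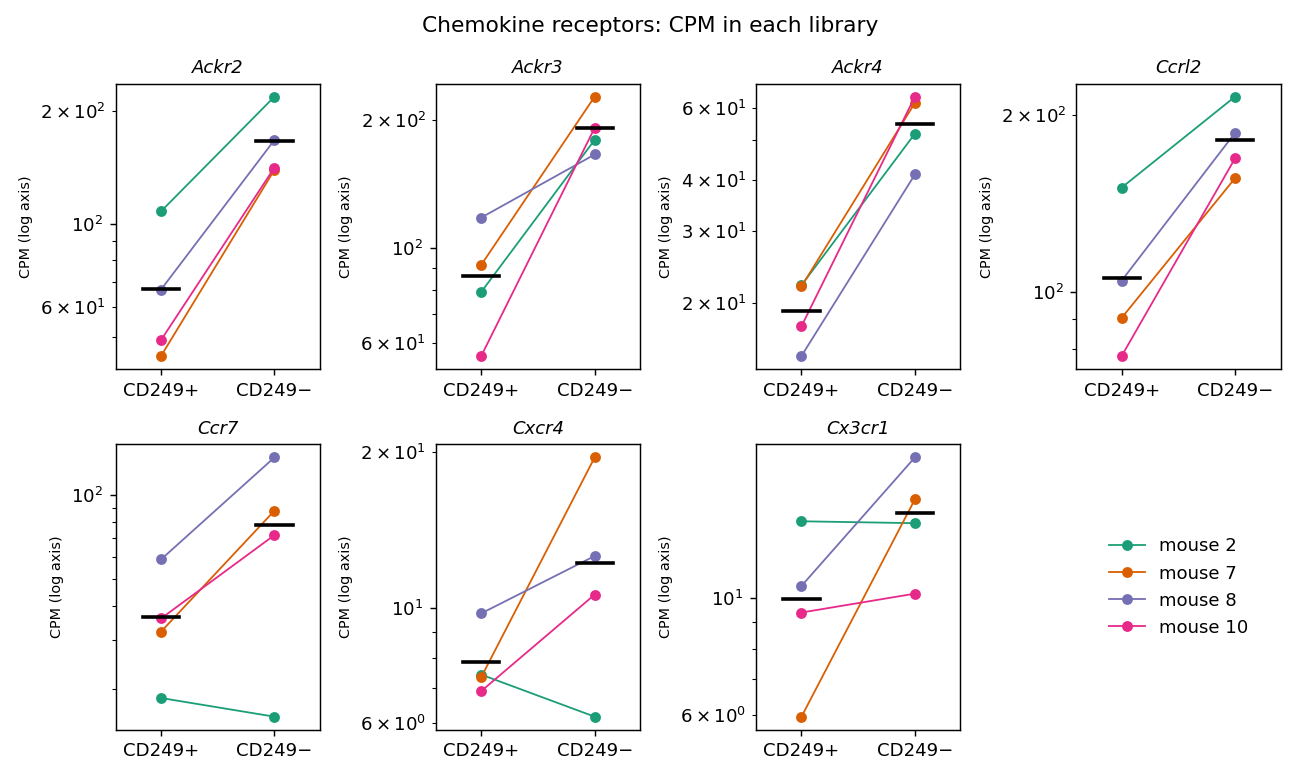
CPM on a log axis for 7 chemokine receptors, CD249+ left of CD249−, with 1 line per mouse and black bars for the means. Ackr2, Ackr3, Ackr4 and Ccrl2 are lower in CD249+ in all 4 mice, and Ccr7, Cxcr4 and Cx3cr1 in 3 of 4.

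Proteases that trim or release chemokines differed in both directions, with 3 of 7 higher, 3 lower and 1 not called. The shares of all genes tested were 16.9% higher and 13.9% lower. Mmp2, known to cleave Cxcl12 and Ccl7, averaged 1435 ± 392 CPM in CD249+ libraries, against 309 ± 79.8 CPM in CD249− libraries (SD, n = 4 each, log2 fold change 2.22). Mmp14 rose with a log2 fold change of 1.46. Dpp4, a peptidase that trims the amino end of Cxcl12 and Cxcl10, averaged 81.4 ± 18.0 CPM in CD249+ libraries, against 182 ± 15.6 CPM in CD249− libraries (SD, n = 4 each, log2 fold change -1.16). Of the sheddases of Cx3cl1 and Cxcl16, Adam17 rose with a log2 fold change of 0.41 (adjusted p = 0.0144) and Adam10 fell with one of -0.46 (adjusted p = 0.00776).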

How the data were processed

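The authors deposited estimated counts per gene (expected counts, 12.0% of them not whole). Per the labels' protocols, SMART-Seq V4 cDNA from 10 ng of RNA was made into Nextera XT libraries and read once over 75 bp. The submitters' processing notes list STAR 2.6.1, RSEM 1.2.28 and a human genome build, so for these mouse counts the build was not given in the sources used here. Column names were tied to fractions through the sample descriptions and titles.

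Counts were rounded, and 92 spike-in entries, all 0, were dropped. After filterByExpr (14524 genes) and TMM scaling, the fractions were compared in edgeR 4.0.16 (R 4.3.3) by the two-sided quasi-likelihood F test with no term besides the fraction, and p was adjusted by Benjamini-Hochberg across those genes. The procedure was tested on simulated data. Alternatives were library totals or DESeq2 size factors as scaling, DESeq2 1.42.0, limma-voom (limma 3.58.1), no filter and mouse as a block. Fits without 1 library or 1 mouse, and on 2 pairs of mice split by haemoglobin, were added without the block. Fractions of a mouse share a lung, and their deviations from group means correlated across genes (r = 0.132 to 0.285, against -0.212 to 0.0515 for different mice), so the numbers pair the libraries.

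Coordinates and exon lengths were looked up in GENCODE M21 (GRCm38) with unversioned Ensembl identifiers. Ligands were described library by library where called, where averaging at least 10 CPM in a fraction, or where the block changed the call. From other lists up to 4 genes with the smallest p, receptors of described ligands and gate genes were named, and Nfkbiz, Irf7, Stat2, Prox1 and Junb were named after their values were seen. The members and lists were chosen with earlier results of these data known. Without molecular identifiers, amplified reads do not count molecules. One receptor of the list is not reported by name here.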

Additional observations from a re-analysis of the deposited data

Results flagged for a closer look

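In 3 of 44 sets of 4 libraries, taken over described ligands and receptors, 1 library stood apart by a gap past Dixon's 95% critical value for 4 samples. Chance gives about 1 such set in 20. All 3 were libraries of mouse 10. Cxcl14 reached 406 CPM in its CD249+ library, against 226 to 248 CPM in the other CD249+ libraries. Cxcl15 reached 110 CPM in the same library, against 4.87 to 11.6 CPM in the others. In the CD249− library of mouse 10 Cxcl15 reached 9.57 CPM, against 0.459 to 1.43 CPM in the other CD249− libraries.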

How the results depend on the processing

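The count of ligands that rose was 5, where 16.9% of all genes were called higher. It was 3 with limma-voom (17.1%) and 8 with mouse as a replicate block (19.3%). It was 8 in mice 7 and 8 alone (12%) and 1 in mice 2 and 10 alone (3.88%). Fits leaving out 1 library or mouse gave 2 to 7 (12.2% to 16.8%). The count of ligands that fell was 2, where 13.9% of all genes were called lower. It was 4 with library size only (18.5%) and 0 in mice 2 and 10 alone (0.668%). Over fits leaving out 1 library or mouse it was 1 to 4 (8.24% to 13.4%). The count of receptors that fell, 4, was 2 in mice 2 and 10 alone and 3 to 8 over fits leaving out 1 library or mouse. The shares of all genes called lower were those just given. In each of the 20 alternatives 0 receptors rose. The block changed the calls of Ccl7, Cxcl1, Cxcl15, Ccr7 and Cxcr5 and no other call of a described ligand or of Ackr2, Ackr3, Ackr4 and Ccrl2. Cxcl14 kept its call in all 20 (log2 fold change 4.34 to 4.91).

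Direction turned for 5 ligands not called with all libraries. Ccl11 gave -0.62 in mice 2 and 10 alone and -0.13 to 0.54 over fits leaving out 1 library or mouse. Ccl21a gave 0.11 in mice 7 and 8 alone and -0.54 to 0.15 over such fits. Cxcl16 gave -0.096 with library size only, -0.0022 with limma-voom, -0.0025 with the block and -0.046 to 0.11 over such fits. Cxcl12 gave 0.00087 in mice 7 and 8 alone, and Cxcl2 gave 0.088 in mice 2 and 10 alone. The cause was not tested. With 4 libraries a fraction, or 2 in each pair of mice, a ligand that did not pass is not shown to be equal.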
